A study of Mus musculus with 35 samples.

Results

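The step from fetus to postnatal day 14 in mouse haematopoietic stem cells (HSCs) was described by setting the list of accessible regions of P14 HSCs against that of fetal HSCs. The assay was ATAC-seq, which reads out open chromatin from the places where Tn5, a transposase loaded with adapters, could cut. The P14 HSC group held 3 libraries of animals aged 14 days, and the fetal HSC group held 3 libraries of embryos at E16.5. These are 6 of the 35 libraries and 2 of the 12 peak lists of the series, which also covers progenitors (HPCs), adults aged 8 weeks and, in a second set of libraries at P7, wild-type animals and animals labelled as knockouts of the type I interferon receptor Ifnar. All animals had the B6 background, and no genetic change is labelled for the P14 and fetal groups. The labels do not give the organ or the sort gates of these HSCs, nor the number of animals behind each library.

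Each group had 1 pooled list, so n = 1 list on each side, nothing below has a spread between replicates, and no test was possible. Touching or overlapping peaks on chromosomes 1 to 19 and X were merged into regions, which gave 73287 regions in P14 HSCs and 90968 in fetal HSCs. Regions that overlapped between the lists by 1 bp or more were shared, and the rest lay in their list alone. That a region is missing means that no peak was called there, and the chromatin need not be closed. In bulk samples, fewer cells with an open site and weaker opening in each cell cannot be told apart.

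HSCs renew themselves and replenish all blood lineages. In the fetus they divide often and reside mainly in the liver, and after birth they settle in the bone marrow and most become quiescent. Open chromatin marks promoters and enhancers that are bound by regulatory proteins. Interferon-stimulated genes are switched on when type I interferon, a cytokine, signals through its receptor to the STAT and interferon regulatory factor (IRF) proteins, and their promoters often carry the element to which these bind.

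Promoters that were open in P14 HSCs alone carried IRF-type letters more often than promoters open in fetal HSCs alone, in both or in neither, although the intervals of the P14-alone and fetal-alone shares overlapped once the lists were made equally long. The sequences below show examples with several matches. They are RefSeq windows of 300 bases (250 before and 50 after the annotated start, GRCm38.p6), 5′ to 3′ on the strand of the gene, and capitals mark each match to the IRF letters (GAAA, any 2 bases, GAAA) on either strand, with overlapping matches run together. The first 4 windows are the strongest that overlapped a region of P14 HSCs alone and held at least 2 matches. Isg15 encodes a ubiquitin-like antiviral protein, Gm12250 an interferon-inducible GTPase, Ifit3 an antiviral protein and Tlr6 a receptor for bacterial lipopeptides.
Isg15 (chr4:156200769-156201068, reverse strand): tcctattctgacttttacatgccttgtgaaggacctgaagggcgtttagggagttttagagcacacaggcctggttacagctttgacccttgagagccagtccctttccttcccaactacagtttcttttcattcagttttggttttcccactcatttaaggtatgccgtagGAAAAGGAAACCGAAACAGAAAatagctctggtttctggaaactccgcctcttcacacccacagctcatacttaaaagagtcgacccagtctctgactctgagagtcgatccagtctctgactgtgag
Gm12250 (chr11:58183593-58183892, forward strand): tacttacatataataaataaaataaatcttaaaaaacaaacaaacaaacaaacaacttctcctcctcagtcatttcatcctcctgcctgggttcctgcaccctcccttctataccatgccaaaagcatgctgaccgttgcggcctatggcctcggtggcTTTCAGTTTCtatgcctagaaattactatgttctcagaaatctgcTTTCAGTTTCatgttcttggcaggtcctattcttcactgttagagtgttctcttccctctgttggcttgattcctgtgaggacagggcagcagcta
Ifit3 (chr19:34583279-34583578, forward strand): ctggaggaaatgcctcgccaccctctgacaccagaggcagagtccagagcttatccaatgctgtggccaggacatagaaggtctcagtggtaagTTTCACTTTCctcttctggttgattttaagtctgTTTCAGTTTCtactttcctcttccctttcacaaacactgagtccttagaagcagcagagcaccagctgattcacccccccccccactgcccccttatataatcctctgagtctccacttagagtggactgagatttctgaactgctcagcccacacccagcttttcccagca
Tlr6 (chr5:64959117-64959416, reverse strand): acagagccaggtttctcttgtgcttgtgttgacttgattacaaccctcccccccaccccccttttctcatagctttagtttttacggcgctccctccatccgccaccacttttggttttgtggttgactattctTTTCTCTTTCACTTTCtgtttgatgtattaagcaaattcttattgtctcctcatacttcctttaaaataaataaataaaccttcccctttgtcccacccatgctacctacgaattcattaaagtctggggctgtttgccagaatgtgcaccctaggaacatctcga
For comparison, the next 3 windows are all those that overlapped a region of fetal HSCs alone and held at least 2 matches. Ifitm3 encodes an antiviral membrane protein and Rab19 a small GTPase.
Gm3173 (chr14:4498298-4498597, forward strand): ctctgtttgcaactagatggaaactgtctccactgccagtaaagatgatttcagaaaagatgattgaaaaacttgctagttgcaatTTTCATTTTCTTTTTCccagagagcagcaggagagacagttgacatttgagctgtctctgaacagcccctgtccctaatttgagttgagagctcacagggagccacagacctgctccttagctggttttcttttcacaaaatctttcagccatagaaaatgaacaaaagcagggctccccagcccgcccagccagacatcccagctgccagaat
Ifitm3 (chr7:141010695-141010994, reverse strand): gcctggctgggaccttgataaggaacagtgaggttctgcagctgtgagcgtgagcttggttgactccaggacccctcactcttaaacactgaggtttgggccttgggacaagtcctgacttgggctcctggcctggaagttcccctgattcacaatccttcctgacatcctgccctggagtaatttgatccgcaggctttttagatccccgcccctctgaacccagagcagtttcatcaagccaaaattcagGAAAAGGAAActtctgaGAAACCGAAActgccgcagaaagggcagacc
Rab19 (chr6:39381103-39381402, forward strand): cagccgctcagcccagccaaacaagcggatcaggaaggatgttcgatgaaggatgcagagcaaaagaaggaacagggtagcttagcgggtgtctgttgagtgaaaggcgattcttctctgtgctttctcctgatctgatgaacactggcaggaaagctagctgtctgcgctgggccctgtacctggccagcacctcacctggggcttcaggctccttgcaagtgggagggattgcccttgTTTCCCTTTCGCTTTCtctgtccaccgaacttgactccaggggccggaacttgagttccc

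The lists differ in ways that bear on all results below. The descriptions of all 3 P14 HSC libraries name the adult HSC list as their peak file, whereas those of the 3 fetal HSC libraries name their own list, so the P14 results rest on the name that the list carries. Among regions more than 100 kb from any end of a protein-coding gene, the P14 HSC list also stood apart from the other 7 lists of its set. With every list shortened to the length of the shortest, such regions made up 8.11% of the P14 HSC list and 14.1% of the fetal HSC list, and between 10.1% and 14.1% of the other lists of that set. The 4 lists of the second set, which were of a different kind, had 7.65% to 8.45%. The part of this feature in the results was not tested. The sources used here give no read depth.

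Fewer regions were called in P14 HSCs, and most were shared. In P14 HSCs alone there were 11765 regions (16.1%, interval 15.8 to 16.3), and in fetal HSCs alone 29200 (32.1%, 31.8 to 32.4). The Jaccard index, the regions shared over those in either list, was 0.601. With the fetal list shortened to its 73287 regions with the highest −log10 p, the counts were nearly equal, at 16554 in P14 HSCs alone (22.6%) and 16724 in fetal HSCs alone (22.8%), and the index was 0.630. The last fetal region kept and the first left out both had a −log10 p of 17.9. All intervals are exact Clopper-Pearson 95% intervals. They cover counting error over regions only, and treat regions as independent. With 1 pooled list per group they hold no spread between animals or libraries.

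A region in 1 list alone was mostly a weak one. The −log10 p is the authors' own value for each peak, and it was used here to rank, describe or filter regions within a list. Where values of several lists are given for 1 region, they show that each list called it. Their sizes do not measure a difference in openness between lists. The lists differ in median −log10 p (79.6 in P14, 44.8 in fetal and 83.0 in adult HSCs), and the depth is unknown. When each list was split into 10 classes of strength, 53.6% of the weakest class of P14 HSC regions lay in P14 HSCs alone, and 0 of the 7328 regions of the strongest class did, which allows a share of up to 0.0503%. In fetal HSCs the share ran from 77.4% in the weakest class to 0.693% (63 of 9096) in the strongest. The P14 share was the lower of the pair in every class.

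**Figure D1:**
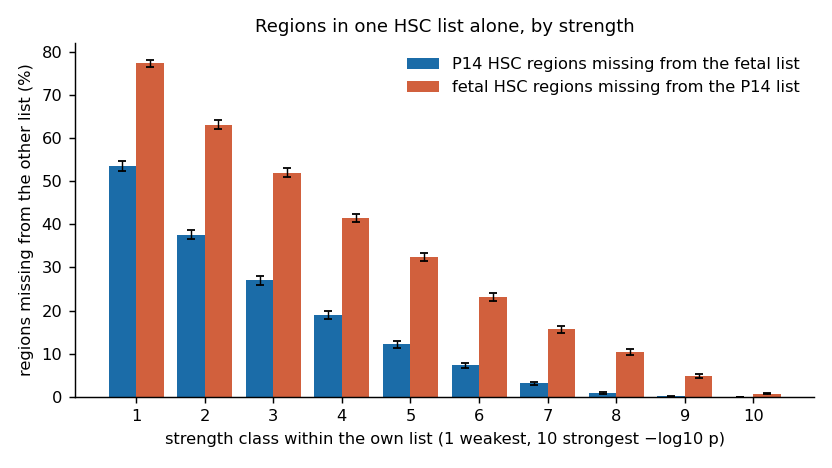
Share of regions missing from the other list (percent, vertical axis) in 10 classes of −log10 p within each list (horizontal axis, weakest to strongest); blue bars are P14 HSC regions and orange bars fetal HSC regions, with exact 95% intervals. The P14 bars start at 53.6% and reach 0%, and the fetal bars start at 77.4% and reach 0.693%.

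Strong regions, those in the upper 50% of their list by −log10 p, were therefore used for the description of places and genes. The limit lay between 79.62 and 79.63 in P14 HSCs and between 44.781 and 44.785 in fetal HSCs. Of 36644 strong P14 regions, 826 (2.25%, 2.10 to 2.41) were in P14 HSCs alone, and of 45484 strong fetal regions 4968 (10.9%, 10.6 to 11.2) were in fetal HSCs alone. With the fetal list shortened before the upper 50% was taken, the counts were 1224 (3.34%) and 2920 of 36700 (7.96%), so that the fetal side remained the larger. HPCs had 2 lists of nearly equal length for the same step, and there 1613 strong regions (3.53%) were in P14 HPCs alone and 1780 (3.94%) in fetal HPCs alone.

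HSC marker genes were read in both lists. Regions called near them cannot check the HSC label, because markers of other cells had regions too. At 12 hepatocyte genes there were 17 strong regions in P14 HSCs and 22 in fetal HSCs. Mecom, Hlf, Procr, Kit, Slamf1, Meis1, Gata2, Fgd5 and Hoxb5 each had regions in both lists within the gene body and 10 kb on each side. None had a strong region in either list alone, against 3.44% (P14 alone) and 7.29% (fetal alone) of all protein-coding genes that had one. At Mecom, which encodes a transcription factor needed for HSC maintenance, 33 regions were called in P14 HSCs and 35 in fetal HSCs, with 7 and 8 weak regions in 1 list alone. Procr, which encodes the surface receptor EPCR, had 6 regions in P14 HSCs and 5 in fetal HSCs.

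The regions of P14 HSCs alone named next are the 10 strongest with a named gene within 50 kb, 1 per gene, which ranked between 2 and 11. A region inside Tcof1, whose product treacle acts in the transcription of ribosomal RNA, had a −log10 p of 363. It was missing from the lists of fetal HSCs and fetal HPCs, and it was called in all of the other 9 lists, with 827 in adult HSCs. A region 35039 bp from Ptprf, a receptor tyrosine phosphatase gene (chr4:118326444-118327029), reached 356 in P14 HSCs, 455 in adult HSCs and 12.5 in fetal HPCs. One 6352 bp from Phlpp1, the gene of a phosphatase of the kinase Akt (chr1:106400597-106401486), reached 238 in P14 HSCs and 442 in adult HSCs, and no fetal list held it. The strongest of all, at 364, lay far from genes (chr9:41812420-41813015, 151694 bp from Sorl1), and it was called in fetal HPCs (199) though not in fetal HSCs.

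Others of these 10 were at Scpep1, a serine carboxypeptidase gene (281), Jade2, which encodes a subunit of a histone acetyltransferase complex (259.8), Slc38a2, an amino acid transporter gene (258), Abca17, an ABC transporter gene (246), and Cmtr1, an mRNA cap methyltransferase gene (245). All of these were also called in adult HSCs. All but the Jade2 region were called in fetal HPCs too, at 49.4 (Scpep1), 33.6 (Slc38a2), 23.2 (Abca17) and 48.3 (Cmtr1). The region at Fam222b (chr11:78094281-78095175, 242) was the only one of the 10 within 1 kb of a transcription start. Next to it among regions at a gene end were those at Skap1, the gene of a T cell adaptor protein (204), Kazald1 (191), Khk, the ketohexokinase gene (167), and Dnah17, a dynein heavy chain gene (159). The last of these was not called in adult HSCs.

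Single genes with several such regions were few. Ablim1, which encodes an actin-binding protein, had 6 strong regions in P14 HSCs alone and 0 in fetal HSCs alone, with 26 regions of any strength in P14 HSCs and 19 in fetal HSCs. Ttc28, Myo5a, Prkca and Atxn1 had 3 each. Bub1b, a spindle checkpoint gene, Stau1, Spocd1 and Msi1 were among those that had 2 each with none in fetal HSCs alone. These genes were picked for their counts after the values were seen.

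Of the strong regions of fetal HSCs alone, those named here are the 10 strongest with a named gene within 50 kb, 1 per gene, and they ranked between 1 and 24 among all such regions. A region at one end of Kcnip4, the gene of a potassium channel-interacting protein (chr5:49524082-49525549), had a −log10 p of 448 in fetal HSCs, and it was called at 53.9 in adult HSCs and at 229 in fetal HPCs. A region inside Nkain2 (chr10:31742263-31743108) reached 396 in fetal HSCs and was called in all other 10 lists, with 887 in adult HSCs, so that the P14 HSC list was the only one without it. Others of these 10 were at Mup-ps16 (434), Lrrc4c, a synaptic adhesion gene (385), A26c3 (349), Epha6, an ephrin receptor gene (339.7), Vwc2l (310.1), Il1rapl1 (307) and Cdh8, a cadherin gene (298). The Epha6 and Vwc2l regions lay within 1 kb of a transcription start. At gene ends, Cntnap5a (255) and Cbln4 (238) followed.

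Some fetal-alone regions were also missing from adult HSCs, and these are the ones that no later HSC list of the first set holds. The region 27912 bp from Cdh8 (chr8:98995669-98996559) was called in fetal HSCs (298) and fetal HPCs (98.8) and in none of the 10 postnatal lists. The same held for regions inside Nell1 (196 in fetal HSCs, 57.3 in fetal HPCs) and inside Nrg1, the neuregulin gene (155 and 128). It also held for a region within 1 kb of the transcription start of Gabrg1 (163 and 60.2). A region inside Cacna2d3, a calcium channel subunit gene, had the same pattern (139 and 68.9). Regions inside Ptprt, Pde1c and at Glra3, a glycine receptor gene, were missing from adult HSCs as well, but each was called in at least 1 postnatal list.

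The places of the regions differed between the lists. Of the strong P14-alone regions, 7.26% (5.59 to 9.25) were over 100 kb away from gene ends, which is close to the 7.56% of strong P14 regions that were shared. Of the strong fetal-alone regions, 43.1% (41.7 to 44.4) did, against 10.8% of shared fetal regions. The median number of protein-coding genes within 500 kb was 16 for P14-alone regions and 12 for shared P14 regions, and 4 for fetal-alone regions and 10 for shared fetal regions. In neighbourhoods of 0 to 2 genes, 1.15% of strong P14 regions and 37.4% of strong fetal regions lay in their list alone. In neighbourhoods of at least 20 genes these shares were 3.10% and 2.58%. At equal length the fetal shares were 30.8% and 1.86%, and the P14 shares 1.84% and 4.80%.

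**Figure D2:**
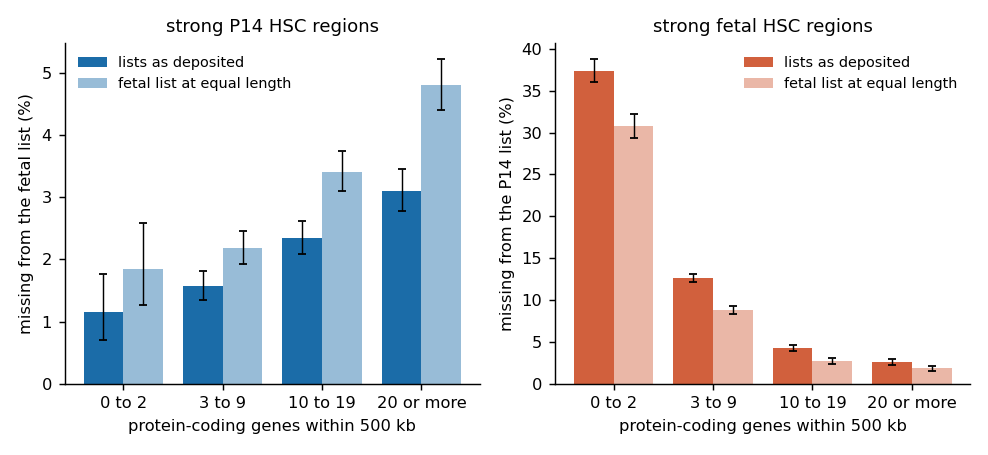
Share of strong regions missing from the other list (percent, vertical axes with different scales) by the number of protein-coding genes within 500 kb (horizontal axes), for P14 HSCs on the left and fetal HSCs on the right; dark bars use the lists as deposited and pale bars the shortened fetal list, with exact 95% intervals. The P14 share is 1.15% with 0 to 2 genes and 3.10% with 20 or more, whereas the fetal share is 37.4% with 0 to 2 genes and 2.58% with 20 or more.

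Transcription starts were sparse on both sides. Of the strong P14-alone regions, 2.30% (1.39 to 3.57) lay within 1 kb of a start, against 26.8% of shared P14 regions. Of the strong fetal-alone regions, 3.46% (2.97 to 4.01) did, against 25% of shared fetal regions.

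Chromosomes were not alike. On chromosome 11, 150 of 2825 strong P14 regions were in P14 HSCs alone (5.31%, 4.51 to 6.20), and this chromosome held 18.2% of all P14-alone regions but 7.71% of all strong P14 regions. Chromosomes 15 (3.83%) and 19 (3.17%) followed, and X had the lowest share, 4 of 700 (0.571%). In fetal HSCs the share was highest on X (14.4%, 168 of 1163) and lowest on chromosomes 19 (3.38%) and 11 (5.72%). Genes per Mb were high on chromosomes 11 (13.2) and 19 (12.2) and low on X (5.66), but chromosome 7, with the most (14.0), had a P14-alone share of 1.31%.

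**Figure D3:**
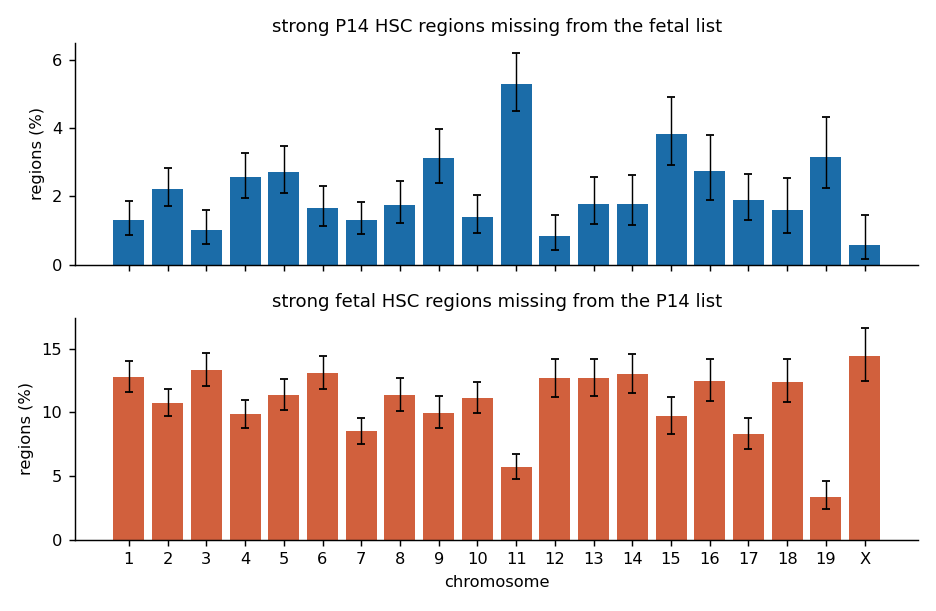
Share of strong regions missing from the other list (percent, vertical axes with different scales) on each chromosome (horizontal axis), for P14 HSCs above and fetal HSCs below, with exact 95% intervals. Chromosome 11 stands highest in P14 HSCs at 5.31% and second lowest in fetal HSCs at 5.72%.

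The other 10 lists of the series were not used to choose the regions, and they were read next. Shared regions of the same strength, weighted to the same 10 classes, served as the reference. Strong P14-alone regions were called in adult HSCs at 80.4% (77.5 to 83.0), against 95.3% of shared regions of that strength. They were called in P14 HPCs at 75.8% against 94.9%, and in P7 wild-type HSCs at 72.6% against 83.8%. The lowest share was in fetal HPCs, with 50.7% (47.3 to 54.2) against 89.5%. Both fetal lists thus lacked 407 of the 826 regions, and 46 of these were called in all 10 postnatal lists, the P14 HSC list included. Only 1 of the 826 was called in no other list.

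Strong fetal-alone regions were called in fetal HPCs at 90.8% (90.0 to 91.6), against 94.9% of shared regions of the same strength. In adult HSCs 79.3% (78.2 to 80.5) were called, against 97.4%, and in P14 HPCs 74.2%, against 95.7%. In P7 knockout HSCs of the second set 6.84% were called, against 67.3%, and in P7 wild-type HSCs 7.11%, against 72.4%. Both P7 HSC lists belong to the second set, and in HPCs at P7 the share moved with the set: the first set's list held 70.9% of these regions, and the second set's held 12.4% in the knockout and 17.4% in the wild type. All 5 other postnatal lists of the first set held 1772 of the 4968 (35.7%), and 935 of these (18.8% of the 4968) were in none of the 4 lists of the second set. Both fetal lists and no postnatal list held 299 (6.02%), of which 66.9% were over 100 kb away from gene ends. Regions deep inside long genes also count as far from gene ends. For the fetal-alone regions that adult HSCs held, 2 accounts cannot be told apart. HSCs at P14 may have lost them for a time, or the P14 list may under-represent regions far from gene ends.

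**Figure D4:**
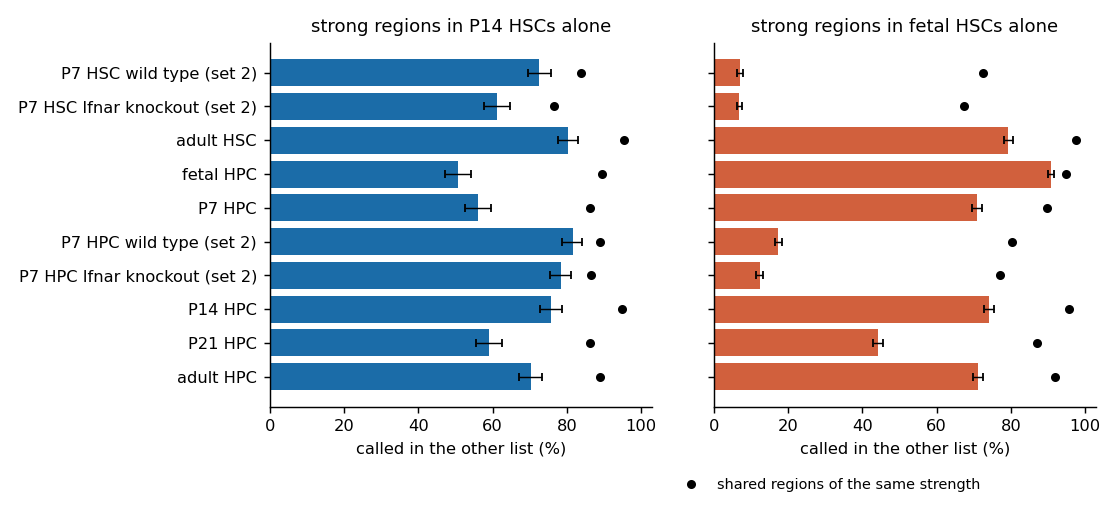
Share of strong regions in P14 HSCs alone (left) and in fetal HSCs alone (right) that each of the other 10 lists holds (percent, horizontal axes), with exact 95% intervals; black dots are shared regions of the same strength. The P14-alone bars lie between 50.7% and 81.5%, and the fetal-alone bars between 6.84% and 90.8%.

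The next step in HSCs gave a mirror of these counts, with the P14 list as the shared member. Adult HSCs had 4536 strong regions that P14 HSCs lacked (10.1%), 36.7% of them over 100 kb away from gene ends, and P14 HSCs had 830 that adult HSCs lacked (2.27%). Without the P14 list, adult HSCs had 2024 strong regions alone (4.53%) and fetal HSCs 1556 (3.42%). Of the 664 P14-alone regions that adult HSCs also held, 255 (38.4%) were in the upper 50% of the adult list. Of the 3942 fetal-alone regions called in adult HSCs, 2071 (52.5%) were.

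The IRF-type letters shown above were 1 of 9 motifs searched in the 21044 promoter windows of 17273 genes. At any strength, 242 windows overlapped a region of P14 HSCs alone, and 23 of them (9.50%, 6.12 to 13.9) held the IRF letters. Of the 637 windows that overlapped a region of fetal HSCs alone, 21 (3.30%, 2.05 to 5.0) held it. The share was 2.78% of 12393 shared windows, 4.15% of 7597 windows without a region and 3.38% of all windows. With the shortened fetal list it was 7.44% (32 of 430, 5.15 to 10.3) for P14-alone and 3.53% (15 of 425, 1.99 to 5.75) for fetal-alone windows, so that the intervals, which were apart for the lists as deposited, overlapped at equal length. The motif was picked out after the values of all 9 were seen.

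Base composition moves with these letters, which are rich in A and T. In windows under 50% GC, 13 of 51 P14-alone windows (25.5%, 14.3 to 39.6) and 13 of 153 fetal-alone windows (8.50%, 4.6 to 14.1) held the letters, against 8.74% of shared windows. From 50% to below 60% GC these shares were 8.41%, 2.67% and 3.75%. At 60% GC or more they were 1.19%, 0.772% and 1.39%. Below 50% GC the interval of the P14-alone share began at 14.3 and that of the fetal-alone share ended at 14.1. In the other GC classes the intervals overlapped. These shares are for the lists as deposited and not for the shortened fetal list. Some windows share a region, as the 2 windows of Slfn8 do, so the intervals describe the counts and are no test.

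**Figure D5:**
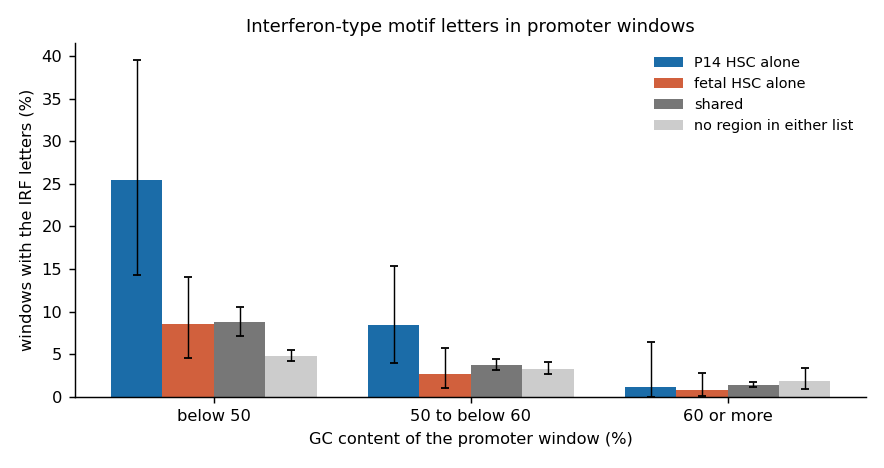
Share of promoter windows that hold the IRF letters on either strand (percent, vertical axis) in 3 classes of GC content (horizontal axis), for windows that overlap a region of P14 HSCs alone, of fetal HSCs alone, shared regions, or no region, with exact 95% intervals. Below 50% GC the P14-alone share is 25.5% and the fetal-alone share 8.50%.

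The 23 windows belonged to 22 genes, of which 3 (Isg15, Ifit3 and Oas3) are in the list of 26 interferon-stimulated genes; of the 21 genes of the fetal-alone windows, 1 is (Ifitm3). Besides those printed above they included Oas3, an oligoadenylate synthetase gene that senses viral RNA, Tgtp2, an interferon-inducible GTPase gene, Slfn8 and Slfn9 of the Schlafen family, Ctss, the cathepsin S gene, Trim5, Fcgr4, an antibody receptor gene, Slamf8, and Ifna2, a type I interferon gene. Scube3, Eps8l1, Mrpl20 and Stmnd1 were also among them. None of these regions was strong (0 of the 13 windows with a strong P14-alone region held the letters), and their −log10 p ran from 14.7 to 75.4 with a median of 35.0. The window of Tcf12 also touched a second, shared region. The fetal-alone windows with these letters included Ifitm3 (19.6), but also Igf2, a fetal growth factor gene (33.4), Sst, Neurog2 and Foxa1.

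Within 10 kb of Isg15, 3 regions were called in P14 HSCs and 2 in fetal HSCs, with highest −log10 p of 226 and 140.3. The P14-alone region there (chr4:156200729-156201002) was a weak one, at 46.7. It was called in adult HSCs (75.7), P7 wild-type HSCs (34.0), P14 HPCs (32.2) and adult HPCs (51.0), and it was missing from both fetal lists and from the P7 knockout lists of HSCs and HPCs. The Gm12250 region (75.4) was likewise called in adult HSCs (77.2) and P7 wild-type HSCs (80.3) and missing from both fetal and both knockout lists. Other windows went another way: at Slfn8 the region (56.5) was called in P7 knockout HSCs (25.9) and not in P7 wild-type HSCs, and P7 knockout HPCs held Slfn8 (48.2) and Oas3 (58.9). The knockout lists are shorter than the wild-type lists of the second set. They hold 42459 against 45615 regions in HSCs (2 against 3 libraries) and 58567 against 66044 in HPCs. The part of list length in the missing regions was not tested. The Ifit3 region (33.9) was called in adult HSCs (34.7), and of the HPC lists only in P7 wild-type HPCs of the second set (32.1). Of the 23 windows, adult HSCs held a region in 16, P14 HPCs in 17, fetal HPCs in 8, P7 knockout HSCs in 4 and P7 wild-type HSCs in 8, and in the second set P7 knockout HPCs in 10 and P7 wild-type HPCs in 15. Of the 219 P14-alone windows without the letters, adult HSCs held 112 (51.1%), P14 HPCs 114 (52.1%) and fetal HPCs 83 (37.9%). P7 knockout HSCs held 17 (7.76%) and P7 wild-type HSCs 38 (17.4%). In the second set, P7 knockout HPCs held 69 (31.5%) and P7 wild-type HPCs 74 (33.8%). With the letters, these shares were 69.6%, 73.9%, 34.8%, 17.4%, 34.8%, 43.5% and 65.2%, in the same order.

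The same letters were counted in comparable steps. Between HPCs, in lists that share nothing with those above, 25 of 446 P14-alone windows (5.61%, 3.66 to 8.16) and 9 of 297 fetal-alone windows (3.03%, 1.39 to 5.67) held them. Between adult and fetal HSCs, which share the fetal list with the P14 comparison, the shares were 9.03% (25 of 277) and 1.90% (7 of 368). Between P7 knockout and wild-type HSCs they were 3.34% of windows in the knockout alone and 4.58% of windows in the wild type alone.

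Of the other motifs, the ETS letters GGAAGT were in 28.5% of P14-alone and 17.4% of fetal-alone windows, against 27.7% of shared and 25% of all windows. For the lists as deposited, only these and the IRF letters had P14-alone and fetal-alone intervals that did not overlap. The RUNX letters TGTGGT were in 19.8% and 14.3%, and the AP-1 letters TGANTCA in 12.4% and 6.75%. Windows without a region had similar shares to the P14-alone windows for both, at 19.9% and 11.4%. The MEIS letters TGACAG were in 17.4% of P14-alone and 22.3% of fetal-alone windows. Shares of the GATA letters AGATAA (10.7% and 7.69%), CEBP letters TTGCNNAA (6.61% and 10.5%), KLF letters CCACCC (38.8% and 43.0%) and E-box letters CAGCTG (18.2% and 18.7%) were the rest. Both classes of windows were poorer in CpG than shared ones, with a median of 8 CpG in P14-alone, 11 in fetal-alone and 21 in shared windows. A match is a description of letters and not a bound site.

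Gene lists were read with regions in the gene body and 10 kb on each side. Of 21627 protein-coding genes, 743 (3.44%) had a strong P14-alone region and 1576 (7.29%) a strong fetal-alone region. Of the 367 genes of the 20 lists, 22 (5.99%) and 15 (4.09%) did, and the median difference per gene was 0 in every list and over all genes. Among 26 type I interferon-stimulated genes, the neighbours Oas2 and Oas3 had a strong P14-alone region, which is 1 region within reach of both (chr5:120749579-120750264, 143), and none had a fetal-alone one. At any strength, 9 of these 26 (34.6%) had a P14-alone and 5 (19.2%) a fetal-alone region, against 28.9% and 37.2% of all genes. Among 16 genes of MHC and antigen presentation, Tap2, a peptide transporter gene, and Psmb8, an immunoproteasome gene, are neighbours within reach of 1 strong P14-alone region (chr17:34210516-34211077, 128), and none had a fetal-alone one.

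Receptor and signalling lists had single members that differed by 2 strong regions. Csf2rb, the shared receptor chain for IL-3, IL-5 and GM-CSF, had 2 strong regions in P14 HSCs alone and 0 in fetal HSCs alone. Tcf7l2, a transcription factor gene of Wnt signalling, also had 2 and 0. Ppargc1a, a coactivator gene of mitochondrial biogenesis, had 0 in P14 HSCs alone and 2 in fetal HSCs alone. Among 20 chromatin regulators, Ezh1, Cbx7 and Dnmt1 had a strong P14-alone region, and Hdac9 a fetal-alone one. Of the 25 HSC regulators and markers, Gfi1b and Prdm16, both transcription factor genes that HSCs depend on, had 1 strong P14-alone region each, and none had a fetal-alone one.

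The fetal programme had regions in 1 list alone mostly among its weak ones. Lin28b, which blocks maturation of let-7 microRNAs in fetal HSCs, had 6 regions in P14 HSCs and 7 in fetal HSCs, and its 1 P14-alone and 3 fetal-alone regions were all weak. Hmga2, a let-7 target that promotes HSC self-renewal, had 10 regions in P14 HSCs and 16 in fetal HSCs. Of its 5 fetal-alone regions 1 was strong (chr10:120463148-120463488, −log10 p 48), and adult HSCs held that region (39.5). Igf2bp3, another let-7 target, had 6 regions in P14 HSCs and 5 in fetal HSCs, with 1 weak P14-alone region. The imprinted gene Peg3 had 1 strong fetal-alone region. Of the 18 genes, 0 had a strong P14-alone region and 2 (11.1%) a fetal-alone one, and this difference of −2 regions turned to 1 with the shortened fetal list. At any strength 9 (50%) had a P14-alone region and 12 (66.7%) a fetal-alone one, against 28.9% and 37.2% of all genes.

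Genes of interferon reception and of the niche had no strong region in either list alone at Ifnar1 and Ifnar2, the receptor subunits, at Irf7, at Cxcr4, the chemokine receptor that retains HSCs in the marrow, or at Kit, the receptor for stem cell factor. Ifnar2 had 5 regions in P14 HSCs and 3 in fetal HSCs, of which 2 weak ones were in P14 HSCs alone. Kit had 6 and 5, with 3 weak regions in P14 HSCs alone and 2 in fetal HSCs alone. Of 23 genes of homing, adhesion and niche receptors, Itgal, an integrin gene of leukocytes, had a strong P14-alone region, and Ednrb, Ptger2 and Cdh2 had a fetal-alone one.

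Lineage programmes and markers of other cells had between 0 and 2 genes per list with such a region on either side. Irf8 had a strong P14-alone region among 20 myeloid genes, and Mmp8 a fetal-alone one. Tfrc and Slc4a1 had a P14-alone region among 20 erythroid and megakaryocytic genes. Ebf1, a B cell transcription factor gene, had a fetal-alone one and Notch3 a P14-alone one among 20 lymphoid genes. Of marker lists of 12 genes each, P14-alone and fetal-alone regions were at 0 and 1 hepatocyte genes (Afp), 1 (Pecam1) and 0 endothelial genes, 0 and 0 stromal genes, 0 and 2 T cell genes, 0 and 1 B cell genes, and 2 (Cd5l and Mertk) and 1 (Marco) macrophage genes. The 2 macrophage genes are 16.7% of their list, against 3.44% of all genes with a P14-alone region, and the 2 T cell genes are 16.7% of theirs, against 7.29% of all genes with a fetal-alone one. Strong regions of the 12 hepatocyte genes numbered 17 in P14 HSCs and 22 in fetal HSCs. The part of other cells in the results was not tested. Among 22 cell cycle genes only Cdk1 had such a region, in fetal HSCs alone, and among 21 immediate early and AP-1 genes only Junb, in P14 HSCs alone.

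The length of a gene moved with its fetal-alone regions. Of the 226 genes of at least 500 kb, 9 (3.98%) had a strong P14-alone region and 170 (75.2%) a strong fetal-alone one. Of the 11652 genes under 20 kb, 2.09% had a strong P14-alone region and 2.94% a strong fetal-alone one. Robo2, the gene of an axon guidance receptor, had 0 strong P14-alone and 14 fetal-alone regions, with 11 regions of any strength in P14 HSCs, 43 in fetal HSCs and 45 in adult HSCs. Csmd1 had 12 fetal-alone regions, and 4, 27 and 13 in the P14, fetal and adult lists. Of genes of 100 to 500 kb, 7.95% and 26.8% did, and of those of 20 to 100 kb, 4.17% and 6.28%. Gene families were chosen after the data were seen. Fetal-alone regions were at 9 of 13 contactin and contactin-associated genes (69.2%, median length 401 kb). They were at 49 of 92 cadherin and protocadherin genes (53.3%, 96.2 kb) and 14 of 27 glutamate receptor genes (51.9%, 278 kb). P14-alone regions were at 0, 1 and 0 genes of these families. The part of gene length in these shares was not tested. The 39 Hox genes are short, and 1 (2.56%) had a P14-alone region and 0 a fetal-alone one. Of 35 claudin genes, which encode tight junction proteins, 4 (11.4%) had a P14-alone region and 1 (2.86%) a fetal-alone one. Their median length was 9.96 kb.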

How the data were processed

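ATAC-seq peak lists of 12 groups were used, 1 pooled list per group. Tagmentation with Tn5 is given per the labels' protocols, and per the submitters' processing notes Bowtie2 and MACS2 were used on mm10 (GRCm38); the sources used here give no versions, filters, way of pooling or read depths. For each peak the deposited lists give a score, the fold (a ratio to local background), the −log10 p and the −log10 q, as the authors' peak caller wrote them. Lists were assigned to groups by name.

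Touching peaks on chromosomes 1 to 19 and X were joined into regions, each with the −log10 p of its strongest peak (Python 3.11.15, pandas 2.3.3, numpy 2.4.6, scipy 1.17.1). To check the code, a copy of the P14 list that lacked 200 strong regions was set against the original, and all 200 were found, with 0 false ones. Correct code must give this outcome, so it tells nothing about missed or false regions between lists of different groups. Coordinates are 1-based mm10. Gene spans, 1 transcription start or more for 17273 of 21627 protein-coding genes, promoter sequences and hairpins came from RefSeq (GRCm38.p6); of 370 list entries 367 matched. Introns and exons were not analysed here, and no genome sequence was used.

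Named genes are, in each direction, those nearest (within 50 kb) to the 10 strongest strong regions in 1 list alone, 1 per gene, numbered predicted genes left out; those of the 5 strongest within 1 kb of a gene end; list members that differ by at least 2 such regions; and a short set of HSC and interferon genes. Some of these genes are not reported here. Members and lists were chosen with earlier results of these data known. Promoter motifs, GC classes, gene families, the split by other lists and all genes named from these were chosen after seeing the data. Other list lengths, overlaps, strength limits, windows and an exchanged list were tried.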

Additional observations from a re-analysis of the deposited data

Results flagged for a closer look

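Peaks on chromosome Y lie outside the comparison, which covered chromosomes 1 to 19 and X. There were 28 in the P14 HSC list and 29 in the fetal HSC list. All 12 lists of the series hold peaks there, between 5 and 31 each, and there is no control list to set them against.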

How the results depend on the processing

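Under the other overlaps and merging, a −log10 q of at least 2 and the removal of X, the counts of regions in 1 list alone stayed within 1.5 times the reported ones. Other settings moved them. Among all regions, the upper 50% by strength left 826 in P14 HSCs alone and 4968 in fetal HSCs alone (difference, P14 minus fetal, −4142), and the upper 25% left 22 and 873 (−851). The fetal list shortened by −log10 p gave 16724 fetal-alone regions (−170), and shortened by fold 17592 (−280). With the adult HSC list in place of the P14 list, 18813 regions were in the later list alone (−1604). Among strong regions, the adult list gave 2024 in place of 826 and 1556 in place of 4968, the upper 25% gave 22 and 873, and the shortened fetal list gave 2920 fetal-alone regions. Settings added after seeing the data gave 2829 fetal-alone regions within 100 kb of a gene end and 1026 that adult HSCs also lacked. Adult HSCs held 95.5% of P14-alone and 87.7% of fetal-alone regions of the upper 25%, 68.9% and 73.1% with the adult list shortened, and 83.3% of fetal-alone regions with the fetal list shortened. List genes with a P14-alone or fetal-alone region numbered 153 and 157 at any strength and 45 and 33 in windows of 50 kb, and 34 had a P14-alone region with the shortened fetal list. At transcription starts the P14-alone share was 4.18% at any strength, 5.45% within 2.5 kb and 6.90% for either gene end, and the fetal-alone shares were 4.89% within 2.5 kb and 4.93% for either end. P14-alone minus fetal-alone regions changed sign for the fetal programme with the shortened fetal list (1, reported −2), for endothelial (−1, reported 1) and B cell markers (5, reported −1) at any strength, and for macrophage markers in windows of 50 kb (−1, reported 1). The cause was not tested. The shares of windows with IRF letters stayed within their intervals with the shortened fetal list, a setting added after seeing the data. Motif shares around peak summits were not run. No paired analysis was possible because each group has 1 pooled list. Depth is unknown, so a region missing from a list may lie under its detection limit.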

Other observations

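Of 1005 RefSeq hairpins with 10 kb on each side, 12 (1.19%) had a strong P14-alone region and 15 (1.49%) a strong fetal-alone region, against 2.09% and 2.94% of protein-coding genes under 20 kb. The fetal-alone ones included Mir137 and Mir9-2, known from neurons, and the P14-alone ones included Mir181d, of a family that acts in lymphocyte development. The let-7 loci, whose products Lin28b keeps low in fetal HSCs, had no strong region in either list alone. At Mirlet7b 6 regions were called in P14 HSCs and 5 in fetal HSCs.

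Strong regions in 1 list alone covered 13 promoter windows of 12 genes in P14 HSCs and 150 windows of 132 genes in fetal HSCs. The strongest in P14 HSCs after Fam222b were at Glrp1 (137), Tank, the gene of an adaptor in innate immune signalling (124), and Slc13a2, a dicarboxylate transporter gene (114), and adult HSCs held all of these, with 122, 228 and 64.3. The strongest in fetal HSCs after Epha6 and Vwc2l were at Fibin (203), Nalcn, a sodium leak channel gene (203), and Cdh9 (199.7). Next came Glra3 (192) and Epha3, an ephrin receptor gene (174). Adult HSCs held the Epha3 region (310.4) and lacked the Glra3 region. Of 1110 olfactory receptor genes, 2 (0.180%) had a strong P14-alone region and 51 (4.59%) a strong fetal-alone one. These shares were 3.44% and 7.29% over all protein-coding genes, and 2.09% and 2.94% over those under 20 kb.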
